A study of Mus musculus with 6 samples.

Results

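MHC class II genes are described here in sorted mouse lung tumour cells, together with Ciita. The members were 7 rows of a single-cell count matrix of 31055 features, taken by gene symbol, and all 7 were present: Cd74, H2-Aa, H2-Ab1, H2-Eb1, H2-DMa, H2-DMb1 and Ciita. The cells came from 6 mice carrying Lkb1XTR/XTR and Rosa26LSL-tdTomato whose tumours were started with Lenti-Cre, an intratracheal lentivirus carrying Cre recombinase, and grew for 20 weeks. In all mice Cre switched on the tdTomato reporter and turned a gene trap into place in Lkb1 (gene symbol Stk11). The trap cuts the Lkb1 transcript short and ends it in GFP, and FLPo-ERT2, a recombinase activated by tamoxifen, deletes it. The restored group held 3 mice with FLPo-ERT2 that received tamoxifen (4 mg doses over 2 weeks). The non-restored group also held 3 mice: 1 without FLPo-ERT2 on tamoxifen, 1 without it on vehicle and 1 with FLPo-ERT2 on vehicle. There were 4 males and 2 females, and the cells had been sorted as tdTomato-positive and free of CD45, CD31, F4/80 and Ter119.

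The deposited matrix pools the cells of all mice, and no file used here ties a cell to its mouse. Restored mice could therefore not be set against non-restored mice, and that contrast was not analysed here. The whole matrix counted as 1 sample, so no test across animals was possible, no p-value is given, and each interval is a 95% interval that covers counting error only. Of 16017 cells, 12183 had at least 500 genes and at most 20% mitochondrial UMIs and were kept, with a median of 19348 UMIs (unique molecular identifiers, 1 per captured transcript). Cells were gated in UMIs per 10000 UMIs of the cell. The ATII (alveolar type II) gate took 6975 cells with Sftpc at 500 or more, Hopx under 2 and Krt8+Krt18 under 50. The ATI (alveolar type I) gate took 956 cells with Hopx at 15 or more and Krt8+Krt18 under 50. The keratin-high gate took 1183 cells with Krt8+Krt18 at 50 or more, and the myeloid gate took 73 cells with both Ptprc and Tyrobp detected, of which 4 were also in the ATII gate. A further 3000 kept cells fell in none of these gates.

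MHC class II molecules are pairs of an alpha and a beta chain that present peptides from the endosomes to CD4+ T cells. H2-Aa and H2-Ab1 encode the alpha and beta chain of I-A, and H2-Eb1 the beta chain of I-E. Cd74, the invariant chain, guides the pair to the endosome and keeps its groove filled, and H2-DMa and H2-DMb1 form the exchange factor that replaces the last piece of Cd74 with peptide. Ciita is the coactivator that, held at class II promoters by the RFX, CREB and NF-Y factors, switches these genes on. Dendritic cells, macrophages and B cells are the classic presenting cells, and alveolar type II cells of the mouse lung also carry class II.

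The RefSeq promoter windows of GRCm38.p6 (300 bases, 250 before to 50 after a start) matched 4 of the 7 members, H2-Aa, H2-Eb1, H2-DMa (2 windows) and H2-DMb1. Class II promoters are known for a fixed set of boxes, so the windows were searched on both strands for GCAAC (an RFX-like half-site), TGANG (a CREB-like half-site) and ATTGG (the NF-Y box), letters and distances that were chosen after these windows had been read. TGANG followed by ATTGG, 20 to 32 bases from start to start, was present in 3 of the 5 member windows and in 3.13% of all 32851 windows. The 100 bases before the start are shown for these 3 genes because the boxes lie in this stretch in each of them. Capitals mark the TGANG and ATTGG pair and a GCAAC at most 12 bases before it, and overlapping TGANG matches run together. The stretches are H2-Aa at chr17:34287824-34287923 on the minus strand, H2-Eb1 at chr17:34305767-34305866 on the plus strand and H2-DMb1 at chr17:34153091-34153190 on the plus strand.
H2-Aa: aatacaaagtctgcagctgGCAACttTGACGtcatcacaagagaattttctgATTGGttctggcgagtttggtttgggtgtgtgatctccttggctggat
H2-Eb1: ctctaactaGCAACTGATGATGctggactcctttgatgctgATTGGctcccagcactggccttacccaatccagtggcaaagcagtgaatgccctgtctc
H2-DMb1: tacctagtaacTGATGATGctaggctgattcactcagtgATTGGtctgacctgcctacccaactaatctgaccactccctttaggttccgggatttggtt

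The start-to-start distance was 26 bases in H2-Aa, 27 and 24 bases in H2-Eb1, and 28 and 25 bases in H2-DMb1, where 2 overlapping TGANG matches precede 1 ATTGG. H2-Aa and H2-Eb1 also carried the GCAAC, which H2-DMb1 lacked. All 3 in this order were present in 11 of the 32851 windows, and 4 of these 11 belonged to class II genes. The letters and distances were chosen after the class II windows had been read, so these counts describe the windows and test nothing. Singly, TGANG was present in 89.4% of all windows, ATTGG in 37.4% and GCAAC in 35.2%. Neither window of H2-DMa held the pair in this order and spacing. The I-A, I-E and DM genes lie together on chromosome 17, in GENCODE M21 coordinates of GRCm38 from H2-DMa (34119541 to 34139101, plus strand) and H2-DMb1 (34153072 to 34160230, plus) through H2-Ab1 (34257689 to 34269419, plus) and H2-Aa (34282744 to 34287823, minus) to H2-Eb1 (34305867 to 34316674, plus). Ciita lies on chromosome 16 (10480059 to 10528418, plus). The RefSeq start used for the H2-DMb1 stretch lies inside the GENCODE gene. Both H2-DMa windows (34122582 to 34122881 and 34125268 to 34125567) also lie inside the GENCODE gene. The lack of the pair in them need not hold for other starts of H2-DMa.

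Markers that the gates did not use fitted the gate names in most cases. Of 11 such ATII markers, 10 were highest in the ATII gate, with Lyz2 higher in the myeloid gate, and 11 of 11 ATI markers were highest in the ATI gate. Of 6 keratin-high markers, 4 were highest in the keratin-high gate, while Lgals3 was higher in the myeloid gate and Cdkn1a in the ATI gate. All 9 macrophage markers were highest in the myeloid gate, led by Chil3 at 180.4 UMIs per 10000. Of the 7 dendritic genes, Flt3, Xcr1 and Ccr7 were at 0 there, Cd209a, Clec9a and Zbtb46 were at 0.0323 or less, and Itgax, which macrophages also express, was at 2.80, for a summed level of 2.84 against at most 0.0160 in the 3 epithelial gates. The summed level of the 9 macrophage markers was 0.122 UMIs per 10000 in the ATII gate, 0.0719 in the ATI gate and 0.1001 in the keratin-high gate, against 207.5 in the myeloid gate. The 4 cells in both the ATII and the myeloid gate counted in each. The B cell gene Ms4a1 and the T cell genes Cd3e, Cd3d and Cd3g were each at or near 0 in the 3 epithelial gates, at most 0.000495, while Cd79b stood at 0.260 in the ATII gate and Trbc2 at 0.273 in the keratin-high gate.

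Class II transcripts were abundant in the tumour cells. The 6 class II genes without Ciita, summed for each cell and called the class II sum, made up 0.700% of all UMIs of the kept cells. In the ATII gate the sum stood at 83.2 UMIs per 10000 (95% interval 83.0 to 83.3), in the ATI gate at 58.0 (57.6 to 58.4), in the keratin-high gate at 27.8 (27.6 to 28.0) and in the myeloid gate at 61.5 (60.3 to 62.6). Each of the 7 genes had the same order over the 3 epithelial gates, ATII above ATI above keratin-high, with no overlap of the counting intervals between neighbours. The myeloid gate was highest for H2-Eb1, H2-DMa and H2-DMb1, lay between the ATII and ATI gates for H2-Aa and H2-Ab1, and lay between the ATI and keratin-high gates for Cd74 and Ciita, with its Ciita interval overlapping those of both. For H2-Eb1, H2-Aa, H2-Ab1 and Cd74 these myeloid levels rested on 5 of its 73 cells, those with C1q transcripts described with the myeloid gate, and without the 5 the levels were 0.417, 0.369, 0.405 and 0.322 times the ATII level.

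Cd74 was the most abundant member, with 58.3 UMIs per 10000 in the ATII gate, 43.2 in the ATI gate, 21.4 in the keratin-high gate and 34.7 in the myeloid gate. These are counts of 3′ tags, 1 per captured molecule, so they do not scale with transcript length and can be set side by side between genes as far as capture is alike. The alpha chain gene H2-Aa followed with 10.2 in the ATII gate, 5.25 in the ATI gate, 2.00 in the keratin-high gate and 7.85 in the myeloid gate. Its partner H2-Ab1 stood at 6.63, 3.78, 1.79 and 6.62 UMIs per 10000 in the same order of gates, so that the ATII and myeloid levels overlapped within their intervals (6.59 to 6.67 and 6.26 to 7.002) with all cells of the gate, against 0.405 times the ATII level without the 5. The I-E beta chain gene H2-Eb1 stood at 5.39, 3.82, 1.53 and 6.53, highest in the myeloid gate only with these 5 cells included.

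The exchange factor genes were below the 3 chain genes in each of the 3 epithelial gates. In the myeloid gate they were too with all cells, but in its 67 cells with Marco, Chil3 or Mrc1 and under 3 UMIs of C1q genes, H2-DMa stood at 3.29 UMIs per 10000, above H2-Ab1 at 2.74 and H2-Eb1 at 2.30. H2-DMa stood at 0.990 UMIs per 10000 in the ATII gate, 0.549 in the ATI gate, 0.229 in the keratin-high gate and 3.62 in the myeloid gate. H2-DMb1 stood at 1.68, 1.34, 0.841 and 2.17 in that order. H2-DMb1 and its neighbour H2-DMb2 are near-identical, and reads that map to several genes are dropped in this kind of counting, so the level of H2-DMb1 is uncertain; H2-DMb2 itself was counted at 0.116 in the ATII gate. Ciita was the least abundant member, at 0.220 UMIs per 10000 (0.212 to 0.227) in the ATII gate, 0.141 (0.121 to 0.163) in the ATI gate, 0.0388 (0.0321 to 0.0464) in the keratin-high gate and 0.0753 (0.0411 to 0.126) in the myeloid gate, the last from 14 UMIs.

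**Figure D1:**
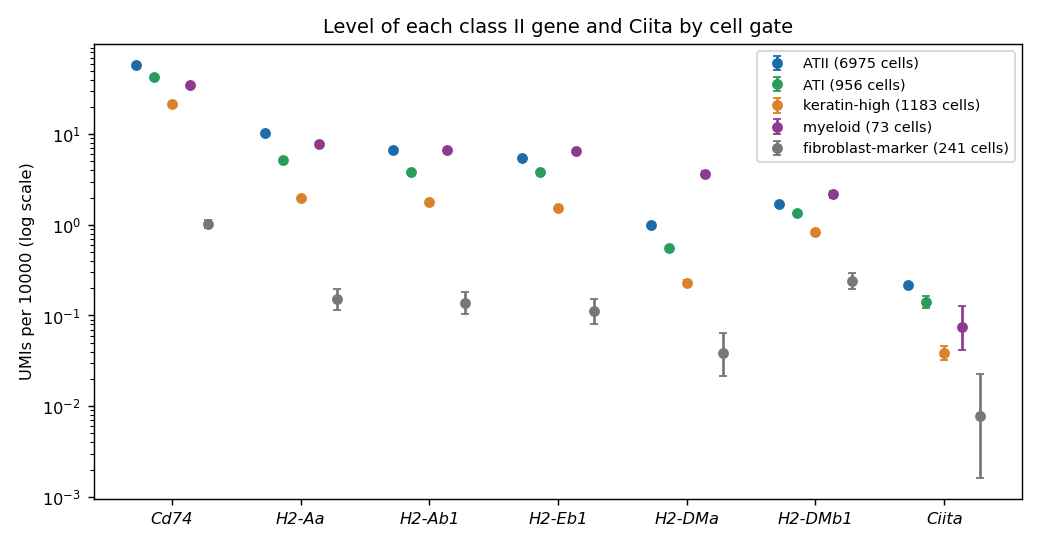
Level of each member in UMIs per 10000 (log axis) in the 4 gates and in the fibroblast-marker cells, pooled over the cells of each gate, with exact Poisson 95% intervals. Every member runs ATII, ATI, keratin-high from high to low, and the myeloid gate is highest for H2-DMa, H2-DMb1 and H2-Eb1, the last falling to 0.842 times the ATII level without 1 of its 73 cells and to 0.417 times without 5.

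Free RNA in droplets can give UMIs in cells that do not express a gene, so the members were also read in fibroblast-marker cells; the free RNA itself was not measured. The 241 kept cells outside the gates with at least 20 UMIs per 10000 of the fibroblast genes Col1a1, Col1a2, Col3a1 and Mgp, a limit chosen after seeing the data, held Cd74 at 1.03 UMIs per 10000, H2-Aa at 0.153, H2-Ab1 at 0.137, H2-Eb1 at 0.111, H2-DMa at 0.0389, H2-DMb1 at 0.241 and Ciita at 0.00778. The 3 epithelial gates were above these levels for all 7 genes. The fibroblast-marker cells shared some proportions with the ATII gate and not others. Cd74 over the 3 chain genes together was 2.55 (2.12 to 3.10) in the fibroblast-marker cells and 2.62 (2.61 to 2.63) in the ATII gate, and the intervals also overlapped for H2-Aa over H2-Ab1 and for H2-Eb1 over H2-Ab1. H2-DMa over H2-DMb1 was 0.161 (0.0868 to 0.280) and 0.589 (0.578 to 0.601) in the same order, and both exchange factor genes over the 3 chain genes came to 0.697 (0.540 to 0.897) and 0.120 (0.119 to 0.121). A further 122 kept cells outside the gates, with at least 10 UMIs per 10000 of the endothelial genes Pecam1, Cdh5 and Ramp2, a limit also chosen after seeing the data, held the class II sum at 8.08 UMIs per 10000 (7.64 to 8.55). For the 6 class II genes these endothelial-marker cells were below all 3 epithelial gates, with overlapping intervals for H2-DMa in the keratin-high gate. Their Ciita level, 0.0928 (0.0507 to 0.156) from 14 UMIs, lay above that of the keratin-high gate.

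Shares of cells were compared after each cell had been thinned to 5000 UMIs, leaving out shallower cells (203 of the ATII gate, 115 of the ATI gate, 93 of the keratin-high gate and 3 of the myeloid gate). Cd74 was then detected in 97.0% of 841 ATI cells, 91.3% of 1090 keratin-high cells, 71.4% of 70 myeloid cells and 16.4% of 183 fibroblast-marker cells, and in 99.97% of 6772 ATII cells. H2-Aa was detected in 96.2% of ATII cells, 62.5% of ATI cells, 39.5% of keratin-high cells, 42.9% of myeloid cells and 3.83% of fibroblast-marker cells. H2-DMa went the other way in the myeloid cells, with 80.0% (68.7 to 88.6) against 35.5% (34.4 to 36.7) in ATII cells. Ciita was detected in 10.9% (10.1 to 11.6) of ATII cells, 6.66% (5.07 to 8.56) of ATI cells, 1.74% (1.05 to 2.71) of keratin-high cells and 8.57% (3.21 to 17.7) of myeloid cells. The fibroblast-marker cells gave 0.546% (0.0138 to 3.01) for Ciita, so the keratin-high share was not distinguishable from theirs at this depth. The Ciita share depended on the depth of thinning: at 2500 and 10000 UMIs it was 6.20% and 20.1% in ATII cells, 2.75% and 11.0% in ATI cells, 0.716% and 3.41% in keratin-high cells, and 1.39% and 4.35% in myeloid cells. The order of the 3 epithelial gates was the same at each depth, whereas the myeloid share was above the ATI share at 5000 UMIs and below it at the other two, with overlapping intervals each time. Without thinning, Ciita was detected in 35.2% of ATII cells, at a median of 21660 UMIs against 11796.5 in the ATI gate, 23490 in the keratin-high gate, 25188 in the myeloid gate and 14753 in the fibroblast-marker cells.

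The class II sum was even among ATII cells and uneven elsewhere. Of 5000 UMIs, ATII cells held a median of 39 class II UMIs (5th to 95th percentile 15 to 65), and none of the 6772 cells was at 0. ATI cells held a median of 22 (2 to 61) and keratin-high cells a median of 9 (0 to 48.5), with 13 and 58 cells at 0. The variance over the mean was 6.08 in ATII cells, 15.5 in ATI cells, 16.1 in keratin-high cells and 237.3 in myeloid cells. The 10% of cells richest in class II held 17.4% of the class II UMIs in the ATII gate, 25.9% in the ATI gate, 34.4% in the keratin-high gate and 72.6% in the myeloid gate.

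**Figure D2:**
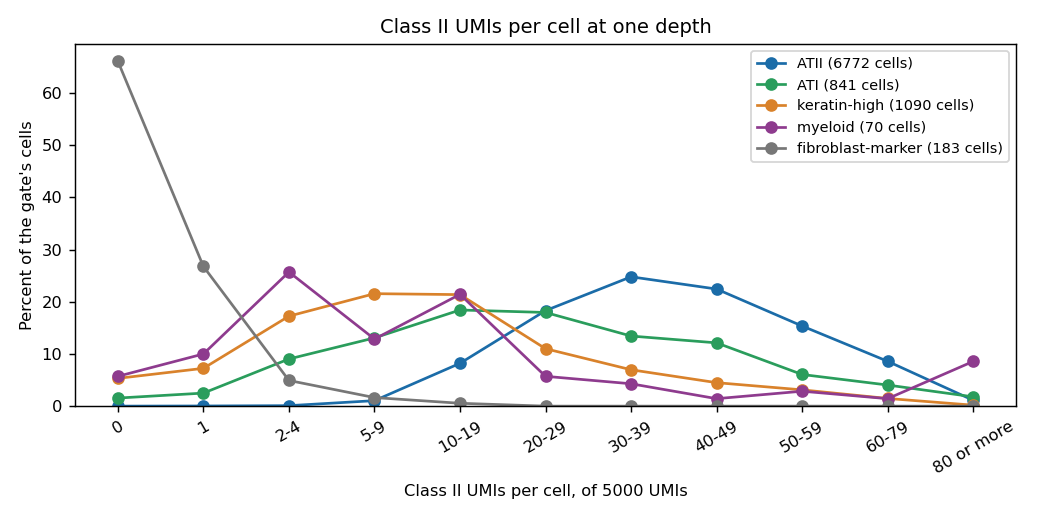
Percent of each gate's cells (vertical axis) by the number of class II UMIs among 5000 UMIs of the cell (horizontal axis, bins of unequal width); lines join the bins of 1 gate. ATII cells form 1 peak at 30 to 39 UMIs, ATI and keratin-high cells spread from 0 upward, and 66.1% of fibroblast-marker cells are at 0.

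The ATII gate was set against the ATI gate to ask whether class II follows the alveolar type II state. Relative to the ATI gate, the ATII level was 1.94 times as high for H2-Aa (interval 1.90 to 1.99), 1.80 times for H2-DMa (1.67 to 1.94), 1.75 times for H2-Ab1 (1.70 to 1.80), 1.56 times for Ciita (1.35 to 1.82), 1.41 times for H2-Eb1 (1.37 to 1.45), 1.35 times for Cd74 (1.34 to 1.36) and 1.26 times for H2-DMb1 (1.20 to 1.32). None of the 7 reached 2-fold, a size that 5.52% of the 8309 genes at 10 or more UMIs per 1000000 in either gate reached in this direction. The median log2 ratio was 0.64 over the members and -0.38 over all genes tested. Sftpc alone took 15.5% of UMIs in the ATII gate and 4.75% in the ATI gate. With the gate genes and mitochondrial genes out of the denominator, 3 of the 7 members and 6.95% of the 8627 genes then tested reached 2-fold, and the ratio of the class II sum went from 1.43 to 1.65.

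The gap to the keratin-high gate was wider. Ciita was 5.66 times as high in the ATII gate (4.72 to 6.85), H2-Aa 5.10 times (4.97 to 5.23), H2-DMa 4.32 times (4.01 to 4.67), H2-Ab1 3.70 times (3.60 to 3.80), H2-Eb1 3.53 times (3.43 to 3.64) and Cd74 2.72 times (2.70 to 2.74). H2-DMb1 came to 2.00 times (1.92 to 2.08) and fell just short of the 2-fold line. Thus 6 of 7 members were at least 2-fold higher, against 5.17% of the 8369 genes tested, and the median log2 ratio was 1.89 over the members and -0.39 over all genes. For the class II sum the ratio was 2.99 (2.97 to 3.01). These sizes depended on the gate limits: with stricter gates (Sftpc at 1000 or more, Krt8+Krt18 at 100 or more) H2-Aa was 11.0 times as high, H2-DMa 7.43 times, H2-Ab1 6.32 times, H2-Eb1 5.61 times and the class II sum 4.58 times.

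Along the whole range of the gate genes the change was gradual. Outside the myeloid gate, the median class II sum per cell was 63.4 UMIs per 10000 in 5224 cells with no Hopx UMI, 76.5 in 3592 cells with Hopx above 0 and under 2, 59.4 from 2 to 5, 47.6 from 5 to 15 and 37.2 in 1083 cells at 15 or more. For Krt8+Krt18 it was 65.6 under 5, 78.5 from 5 to 10, 70.1 from 10 to 20, 51.0 from 20 to 50, 23.2 from 50 to 100 and 12.7 at 100 or more. The 5th percentile was 0 in the lowest keratin bin. The bins also took in the 241 fibroblast-marker and 122 endothelial-marker cells, with median class II sums of 0.452 and 1.30 UMIs per 10000. Pooled Krt8, Krt18 and Hopx stood at 0.687, 0.594 and 0.399 in the former and 0.0994, 0.0795 and 0.166 in the latter. Their part in the lowest bins was not tested. On the 2 sides of the keratin limit of 50 the medians were 51.0 and 23.2, and on those of the Hopx limit of 15 they were 47.6 and 37.2.

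Within the ATI and keratin-high gates, class II followed Sftpc, the surfactant gene of alveolar type II cells. In bins chosen after seeing the data, the median class II sum in the ATI gate was 20.2 UMIs per 10000 in 407 cells with Sftpc under 50, 35.5 from 50 to 200, 48.9 from 200 to 500 and 74.8 in 259 cells at 500 or more. In the keratin-high gate it was 9.34 in 618 cells with Sftpc under 50, 24.7 from 50 to 200, 36.1 from 200 to 500 and 60.9 in 165 cells at 500 or more. From the lowest to the highest bin, median depth went from 9836 to 16416 UMIs in the ATI gate and from 23719.5 to 23548 in the keratin-high gate. Lyz2 went from 1.03 to 19.3 and from 0.497 to 30.6 UMIs per 10000. Doublets were kept, and the part of depth and doublets was not tested. With only cells of Sftpc under 50 in these gates, the ATII level of the class II sum was 2.18 times the ATI level and 6.10 times the keratin-high level, and 5 of 7 members passed 2-fold over the ATI gate, beside 6.56% of the 8501 genes tested in that setting. Ciita, among these 5, was testable there only through its ATII level, with 0.0899 UMIs per 10000 in the ATI cells. Splitting the keratin-high gate by Hopx, also in bins chosen after seeing the data, gave a smaller spread of medians, 15.2 in 620 cells under 2, 21.7 in 436 cells from 2 to 15 and 24.6 in 127 cells at 15 or more.

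**Figure D3:**
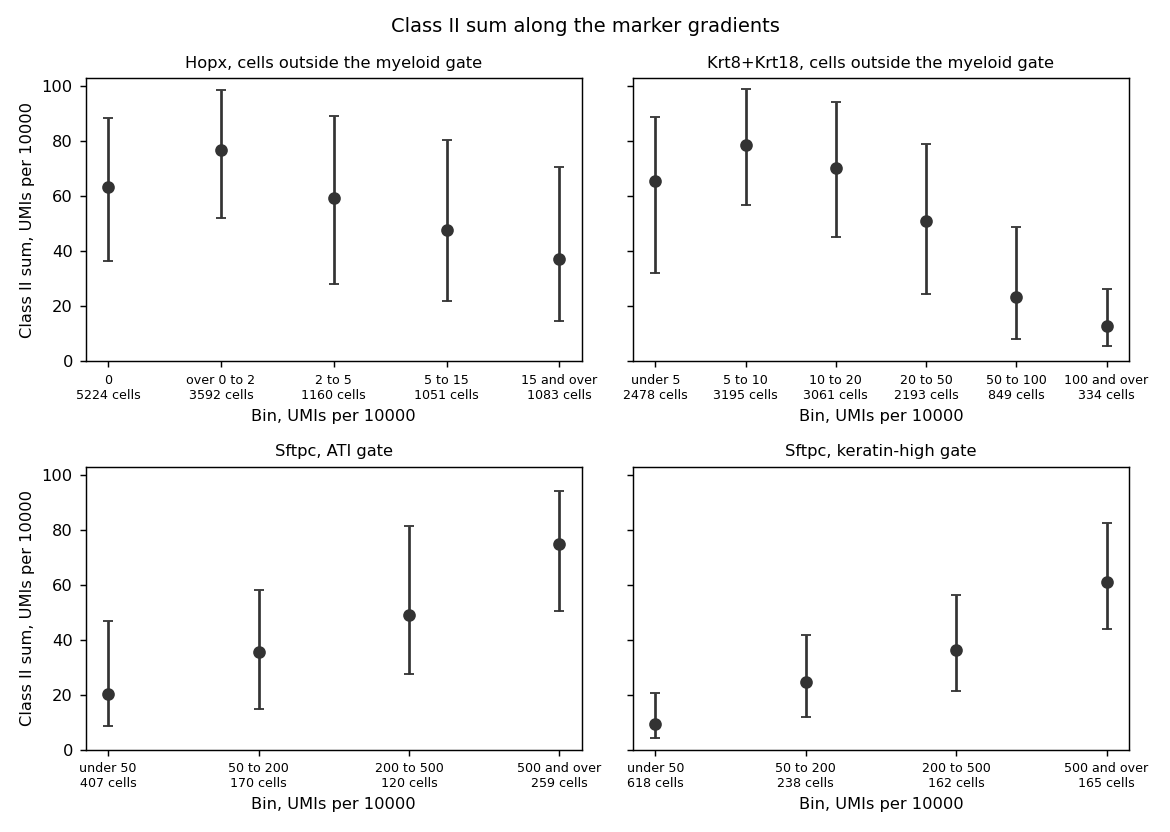
Class II sum per cell (UMIs per 10000; points are medians over cells, bars the 25th to 75th percentile) in bins of Hopx and of Krt8+Krt18 for all kept cells outside the myeloid gate, and in bins of Sftpc within the ATI and keratin-high gates. The medians go down from the second bin on with Hopx and with the keratins, and go up with Sftpc from 20.2 to 74.8 in the ATI gate and from 9.34 to 60.9 in the keratin-high gate. The Hopx and keratin bins include the fibroblast-marker and endothelial-marker cells.

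Inside the ATII gate the gradients were shallow. In 5 equal groups of cells by Lyz2, the lysozyme gene of mature alveolar type II cells, the pooled class II sum went from 72.7 UMIs per 10000 in the lowest group to 81.9, 83.7, 86.3 and 88.3 in the highest. In 5 equal groups by Sftpc it went from 70.4 to 80.6, 84.8, 88.1 and 86.9. Over the Lyz2 groups Cd74 went from 51.8 to 61.7 UMIs per 10000 and H2-Aa from 7.88 to 11.5, whereas H2-DMb1 went from 1.74 to 1.64 and Ciita from 0.221 to 0.214. Median depth moved with both genes, from 17963 to 26720 UMIs over the Lyz2 groups and, over the Sftpc groups, from 11944 in the lowest to 25569 in the fourth and 24313 in the highest, and its part in the gradients was not tested.

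The members were not in constant proportion. There were 2.62 Cd74 UMIs (2.61 to 2.63) for each UMI of H2-Aa, H2-Ab1 and H2-Eb1 together in the ATII gate, 3.36 (3.31 to 3.42) in the ATI gate, 4.03 (3.96 to 4.10) in the keratin-high gate and 1.65 (1.59 to 1.72) in the myeloid gate. H2-Aa over H2-Ab1 was 1.54 in the ATII gate, 1.39 in the ATI gate, 1.12 in the keratin-high gate and 1.19 in the myeloid gate. H2-DMa over H2-DMb1 was 0.589, 0.411, 0.272 and 1.67 in the same order. The invariant chain thus outweighed the chains it serves most in the keratin-high gate and least in the myeloid gate.

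The myeloid gate mixed few cells of very unequal class II. Its 73 cells ranged from 1.11 to 1001.8 UMIs per 10000 of the class II sum, with a median of 11.6, and 10 of them were above the ATII median of 77.1. The gate held 5 cells with at least 3 UMIs of the complement genes C1qa, C1qb and C1qc, a limit chosen after seeing the data, and these 5 were also its highest in class II. They lay between 442.9 and 1001.8 and held 48.9% of the gate's class II UMIs. Without them the pooled sum of the gate was 32.7, which lowered its ratio to the ATII gate from 0.739 (0.725 to 0.753) to 0.393, while as a mean over cells the ratio was 1.01.

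By gene, H2-DMa was 3.65 times as high in the myeloid gate as in the ATII gate (3.38 to 3.95) and was the only member at least 2-fold higher, a size that 22.6% of 8798 genes reached. At 5000 UMIs it was detected in 80.0% of myeloid, 35.5% of ATII and 0.546% of fibroblast-marker cells. Ciita went in the other direction and was 2.92 times as high in the ATII gate (1.74 to 5.34), where 19.5% of genes were at least 2-fold higher. It was testable only through its ATII level, and its myeloid level came from 14 UMIs. In the 5 C1q-positive cells Ciita stood at 0.715 UMIs per 10000, with a UMI in 3 of them, above the ATII level of 0.220. H2-DMb1 was 1.29 times as high in the myeloid gate (1.17 to 1.42). H2-Eb1 was 1.21 times as high (1.14 to 1.28) with all cells and 0.417 times without the 5 C1q-positive cells. H2-Ab1 stood at 0.999 times (0.944 to 1.06) with all cells and 0.405 times without the 5, H2-Aa at 0.770 times (0.730 to 0.810) and 0.369 times, and Cd74 at 0.595 times (0.580 to 0.610) and 0.322 times. As a mean over cells, H2-Eb1 was 1.88 times and H2-Ab1 1.501 times as high in the myeloid gate. The sort had excluded CD45 and F4/80, so these are residual cells, and tdTomato transcripts stood at 24.6 UMIs per 10000 in them against 64.9 in the ATII gate.

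GFP transcripts come from the trapped allele and Stk11 tags from transcripts that ran past the trap or from an allele without it, so cells with a UMI of only 1 of the 2 were compared within each gate. They are cells defined by a transcript, not the study's groups, and differences between mice cannot be told apart from differences between these transcripts. In the ATII gate 1742 cells were GFP-only, 2353 were Stk11-only, 15 had both and 2865 had neither, with a median of 25472.5 UMIs in GFP-only and 25078 in Stk11-only cells.

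Class II levels in the ATII gate were close between the 2 kinds of cell. Cd74 stood at 59.6 UMIs per 10000 in Stk11-only and 59.5 in GFP-only cells, a ratio of 1.00 (0.998 to 1.01), and H2-Ab1 at 6.78 and 6.70. H2-Aa differed most, with 11.2 against 9.29, a ratio of 1.20 (1.19 to 1.22). H2-DMb1 was lower in Stk11-only cells, with 1.63 against 1.85 and a ratio of 0.884 (0.859 to 0.910). Ciita stood at 0.223 and 0.198, a ratio of 1.13 (1.04 to 1.23). None of the 7 was at least 2-fold higher, a size that 0.558% of the 7709 genes tested reached, and the median log2 ratio was 0.11 over the members and -0.18 over all genes. Lyz2 moved with the split, at 168.1 UMIs per 10000 in Stk11-only and 96.5 in GFP-only cells, as did Sftpc, at 1705 and 1357, and their part was not tested. Within the Lyz2 groups, the class II sum was higher in Stk11-only cells in the lowest group (80.4 against 72.2) and lower in the highest (86.6 against 93.4). H2-Aa was higher in Stk11-only cells in each of these 5 groups, from 9.73 against 7.37 in the lowest to 11.6 against 10.9 in the highest.

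The other gates gave smaller groups. In the ATI gate (266 Stk11-only and 242 GFP-only cells) the class II sum was 1.08 times as high in Stk11-only cells (1.06 to 1.10), with Ciita at 1.57 times (1.07 to 2.32), H2-Aa at 1.31 times (1.24 to 1.39) and H2-DMb1 at 0.835 times (0.745 to 0.935). Sftpc moved with the split here too, at 622 UMIs per 10000 in Stk11-only and 398 in GFP-only cells, and its part was not tested. In the keratin-high gate (165 and 642 cells) the sum was 20.2 UMIs per 10000 in Stk11-only and 28.5 in GFP-only cells, a ratio of 0.711 (0.696 to 0.727). There Cd74 was at 0.718 times (0.701 to 0.736), H2-Ab1 at 0.624 times (0.569 to 0.683) and H2-DMb1 at 0.584 times (0.508 to 0.668), while for Ciita the interval spanned 1 (0.467 to 1.48). Sftpc moved the same way in this gate, at 144.1 against 196.2 UMIs per 10000, and its part was not tested.

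**Figure D4:**
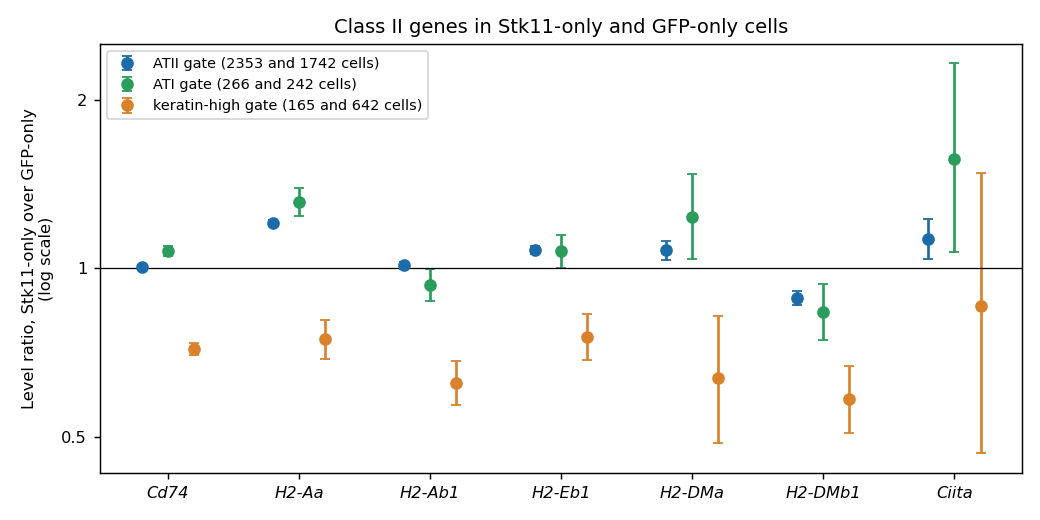
Ratio of the level in Stk11-only cells to that in GFP-only cells (log axis, 1 marked by a line) for each member within the ATII, ATI and keratin-high gates, with exact conditional 95% intervals. In the ATII gate all ratios lie between 0.884 and 1.20, H2-Aa is above 1 in the ATII and ATI gates, and the keratin-high ratios lie below 1 with the Ciita interval spanning it.

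From cell to cell in the ATII gate, Cd74, H2-Aa, H2-Ab1 and H2-Eb1 went together. At this depth H2-DMa and H2-DMb1 followed them only weakly, and Ciita was nearly unrelated to the class II genes. Across 6772 ATII cells thinned to 5000 UMIs, Pearson's r on log2(UMIs + 1) was 0.51 between Cd74 and H2-Aa and 0.47 between Cd74 and H2-Ab1. It was 0.35 between H2-Aa and H2-Ab1 and 0.29 between H2-Ab1 and H2-Eb1. For H2-DMa or H2-DMb1 with Cd74 and the chain genes, r ran from 0.13 (H2-Eb1 with H2-DMb1) to 0.21 (Cd74 with H2-DMb1). Between H2-DMa and H2-DMb1 it was 0.08. Ciita had r = 0.02 with the class II sum. ATII cells with a Ciita UMI held a mean of 40.5 class II UMIs (SD 15.7 over 735 cells), and those without one held 39.2 (SD 15.4 over 6037 cells). In the ATI gate the means were 36.7 in 56 cells with a Ciita UMI and 25.03 in 785 cells without one, and in the keratin-high gate they were 29.4 in 19 cells and 14.6 in 1071 cells. These cells share 1 pooled matrix, and Ciita at 0 or 1 UMI in most of them limits any r.

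Of the 7347 other genes with a UMI in at least 5% of these ATII cells, those with the highest r to the class II sum were Ctsh (0.38), a cathepsin also used in surfactant protein processing, Fth1 (0.34), ferritin heavy chain, Lcn2 (0.31), Sftpd (0.30), Sftpc (0.30), Chil1 (0.28), Wfdc2 (0.28), Sftpa1 (0.28), Rplp0 (0.28) and Rpl9 (0.27). Surfactant genes made up 3 of these 10. The lowest were Malat1 (-0.35), Neat1 (-0.29), mt-Co2 (-0.28), mt-Co3 (-0.28) and mt-Atp6 (-0.28), which are nuclear long RNAs and mitochondrial transcripts. The central 95% of genes ran from -0.11 to 0.10. The listed genes were each detected in 89.7% (Lcn2) or more of these cells, against 5% or more for all ranked genes, and r was not compared at like abundance. Among 3196 ATII cells with no UMI of 34 immune markers, 8 of the 10 highest genes stayed among the 10 highest.

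The factors that hold Ciita at the promoter were lower in the ATII gate than in the ATI and keratin-high gates, as were most genes. All 7 of Rfx5, Rfxap, Rfxank, Creb1, Nfya, Nfyb and Nfyc were lower in the ATII than in the ATI gate, as were 76.6% of all genes tested. None of the 7 was lower by 2-fold, and their median log2 ratio was -0.46 beside -0.38 over all genes. Rfx5 and Rfxank were testable only through their ATI level. Between the ATI and keratin-high gates 6 of the 7 were higher in the ATI gate, as class II was, with a median log2 ratio of 0.07 beside -0.01 over all genes. Rfx5 stood at 0.0699 UMIs per 10000 in the ATII gate, 0.102 in the ATI gate and 0.0985 in the keratin-high gate. Of the interferon gamma pathway, which induces Ciita, 7 of 9 genes were testable and 6 were lower in the ATII gate than in the ATI gate, Irf1 being the exception at 0.639 against 0.399. The median log2 ratio of the 7 was -0.69, beside -0.38 over all genes, 76.6% of which were lower in the ATII gate. Against the keratin-high gate 1 of the 7 was at least 2-fold lower, Ifngr2, at 0.409 against 1.14, a size that 14.5% of all genes reached in this direction. Of 14 interferon targets only 5 were testable in either comparison and none passed 2-fold. Against the ATI gate the interval of the ratio spanned 1 for 3 of these 5, lay above 1 for Psmb8 (1.09 to 1.25) and below 1 for Tap1 (0.677 to 0.882). Against the keratin-high gate it spanned 1 for Tap1 and Irgm1 and lay above 1 for Psmb8, Psmb9 and B2m, with a median log2 ratio of 0.19 over the 5 beside -0.39 over all genes, 76.7% of which were lower in the ATII gate. Among the 5 was B2m, the class I light chain, at 2.46 in the ATII gate, 2.44 in the ATI gate and 2.05 in the keratin-high gate.

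Among the 4 gates, the endosomal proteases other than Ctsh were highest in the myeloid gate. Ctsl and Lgmn were higher still in the fibroblast-marker cells, at 7.73 and 3.78 UMIs per 10000. The 4 cells in both the ATII and the myeloid gate counted in each, and their part in the low ATII level of Ctss was not tested. Ctss, the cathepsin that trims Cd74 in professional presenting cells, stood at 0.0205 UMIs per 10000 in the ATII gate, 0.00300 in the ATI gate, 0.00261 in the keratin-high gate and 35.8 in the myeloid gate. Ctsl, which trims Cd74 in thymic epithelium, stood at 1.12, 2.30, 2.99 and 4.18 in that order, and Ctsh at 19.3, 31.6, 27.8 and 5.66. Ctsd stood at 2.06 in the ATII gate and 69.7 in the myeloid gate, Ctsb at 3.39 and 9.96, and Lgmn at 0.582 and 3.49. Of the 7 testable genes of antigen processing, 6 were lower in the ATII than in the ATI gate, beside 76.6% of all genes, Ctsl by at least 2-fold, a size that 11.5% of all genes reached in this direction. Ctsb was higher, at 3.39 against 2.67, a ratio of 1.27 (1.22 to 1.31). Of the remaining class II genes only H2-DMb2 was testable, and only through its ATII level of 0.116, against 0.0322 in the ATI and 0.00946 in the keratin-high gate. It could thus enter only as higher in the ATII gate. The ATII level was 3.59 times the ATI level (2.65 to 4.97) and 12.2 times the keratin-high level (8.48 to 18.3). The 2 testable genes of class II turnover, March8 and Sppl2a, stayed within 2-fold between the ATII gate and either other epithelial gate, while Sppl2a was 2.94 times as high in the myeloid as in the ATII gate (2.55 to 3.37). Of the co-stimulation genes none of 8 was testable between the ATII and ATI gates. The 2 highest in the ATII gate were Cd276, at 0.0788 against 0.0269 in the myeloid gate, and Cd83, at 0.0575 against 0.946. Of the ligands of CD28, Cd86 stood at 6.19e-05 in the ATII gate against 0.382 in the myeloid gate, and Cd80 at 0.000371 against 0.253. Cd44, the signalling partner of surface Cd74, was 2.41 times as high in the ATII gate as in the ATI gate and 0.420 times the keratin-high level, and the Cd74 ligand Mif was highest in the keratin-high gate at 4.63.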

How the data were processed

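Sorted tumour cells of 6 mice were profiled with 10x 3′ v3 chemistry, each loading aimed at 8000 cells. The deposited matrix holds raw UMI counts, which the authors made with Cell Ranger 3.0.2 (per the file headers) against mm10 with added GFP and TdTomato rows, pooled over all mice and not normalized. Group labels gave 3 restored and 3 non-restored mice, which could not be tied to cells. No column of per-sample values was left unused.

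Cells were kept and gated as stated in the report. Doublets were kept, and an alternative leaves out the 5% of cells with the most UMIs. A level is a gene's share of the pooled UMIs of a gate, scaled to 10000, which gives deep cells more weight. Exact Poisson, conditional binomial and Clopper-Pearson intervals at 95% cover counting error only, and PCR or animal variation is not in them. With 1 pooled sample no test was run, and a 2-fold difference among genes at 10 or more UMIs per 1000000 in either group served as the rule of size. Cells were thinned without replacement to 5000 UMIs for shares and correlations. Named genes were the 7 members, the 10 highest and 5 lowest genes by r, and pathway lists. Members, lists and limits were chosen with earlier results of these data known. Ratios and thinning were tested on simulated data. Alternatives changed the cell filters, gates, denominator, weighting, GFP or Stk11 limits and the depth of thinning (2500 or 10000 UMIs, or none). Python 3.11.15 with numpy 2.4.6, scipy 1.17.1, pandas 2.3.3 and matplotlib 3.10.9 was used; promoter windows came from RefSeq (GRCm38.p6). An allele shared by all mice and a marker gene are not reported here.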

Additional observations from a re-analysis of the deposited data

Results flagged for a closer look

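The 3834 cells that the gene and mitochondrial limits left out also held class II transcripts, at 25.3 UMIs per 10000 of the class II sum (95% interval 24.97 to 25.6). This was flagged as a signal in data outside the comparisons, above the 1.71 UMIs per 10000 of the fibroblast-marker cells. In the 2081 cells under 500 genes the sum was 17.98, and in the 1753 cells over the mitochondrial limit it was 28.1.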

How the results depend on the processing

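No paired analysis was possible because the pooled matrix ties no cell to a mouse, and leaving out each replicate could not be run for the same reason. For the class II sum, the direction of ATII over ATI and of ATII over keratin-high held under every alternative tried. ATII over ATI (main 1.43) was 1.45 with a mitochondrial limit of 10%, 1.61 as a mean over cells, 1.65 with gate and mitochondrial genes out of the denominator, 1.46 without the top 1% of cells by class II, 1.45 without the 5% of cells with the most UMIs, 1.69 with stricter gates and 2.18 with only ATI cells of Sftpc under 50. Members at least 2-fold higher there went from 0 to 3 as a mean over cells, with the reduced denominator and with stricter gates, and to 5 with Sftpc under 50, where 6.26%, 6.95%, 6.27% and 6.56% of all genes reached 2-fold, against 5.52% before. ATII over keratin-high (main 2.99) was, in the same order of settings, 3.05, 2.63, 3.56, 3.07, 2.76, 4.58 and 6.10, and 3.05 without cells with endothelial or fibroblast UMIs. Myeloid over ATII (main 0.739) was 0.715 with the mitochondrial limit of 10%, 0.698 without cells with endothelial or fibroblast UMIs, 0.617 with the reduced denominator, 0.577 without the top 1% of cells, 0.763 without the 5% of cells with the most UMIs, 0.718 with stricter gates and 0.393 without the 5 C1q-positive cells, and turned to 1.01 as a mean over cells, where H2-Aa also turned, to 1.01. H2-Eb1 in the myeloid gate turned from 1.21 to 0.842 without the top 1% of cells, which is 1 cell of this gate, and to 0.417 without the 5 C1q-positive cells. Stk11-only over GFP-only (main 1.03) was 1.04 with the mitochondrial limit of 10%, as a mean over cells and without the 5% of cells with the most UMIs, 1.08 with the reduced denominator, 1.00 and thus without a direction with stricter gates (Cd74 0.975 there), 1.02 with at least 2 UMIs of GFP or Stk11 and 1.06 in cells of 10000 to 30000 UMIs. The settings with C1q and with Sftpc under 50 were chosen after seeing the data. The cause of these shifts was not tested. Of 315 member ratios under alternatives, 201 stayed within the counting interval, 111 moved beyond it in the same direction or across a ratio that had not differed from 1, and 3 turned. Of 84 shares of cells at another depth of thinning or unthinned, 71 moved beyond their counting interval.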
